A study of Homo sapiens with 3 samples.

Results

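The 9 genes described here, CDKN1A, MDM2, BBC3, BAX, GADD45A, SESN1, TP53I3, FAS and BTG2, are target genes of the transcription factor p53. They were taken by name, with earlier results of these data known, from the 23284 genes listed in each library, zeros included. All 9 passed a filter at a mean FPKM of 1, as did 12830 genes in all. FPKM is the mapped fragments scaled to transcript length and library size, so that levels of different genes can be compared. The libraries come from 293T cells, a human embryonic kidney line that carries the SV40 large T antigen, transfected for transient expression of dCas9-VP64, in which the transcriptional activator VP64 is fused to a Cas9 that can no longer cut DNA. The mock library came from cells with the parental guide vector, and the others from cells with a guide RNA against the antisense promoter in the 5′ end of LINE-1 elements, sgL1ASP #1 or sgL1ASP #3. Each condition is 1 library of polyadenylated RNA, so there is no replicate error, no comparison has a p-value, and a difference below describes the libraries and not the conditions. The time between transfection and RNA extraction is not given in the sources used here for these libraries, and neither is the share of cells that took up the plasmids.

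The p53 protein is kept at a low level in unstressed cells by MDM2, a ubiquitin ligase that marks it for degradation. DNA damage and other stresses release p53 from MDM2, after which it binds DNA as a tetramer and switches on genes for cell cycle arrest, DNA repair, metabolism and cell death, MDM2 among them. In 293T cells the large T antigen binds p53 and occupies the surface with which it contacts DNA, so p53 is abundant as a protein but poorly active. RNA values show neither the protein nor its activity.

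The DNA element that p53 recognises consists of a pair of 10-base elements, each built around a 4-base core such as CATG or CAAG. The full 20-base consensus, with no bases between the pair, was searched in GRCh37, the assembly also called hg19. The search lay within 3 kb of the annotated start of each gene, on both strands. These read alike for this symmetric consensus. Pairs set apart by further bases were not searched. The closest matches near the 9 genes are shown because they are the kind of sequence by which p53 reads these genes. With at most 1 mismatch the element occurred near 212 of 17103 protein-coding genes (1.24%) and near GADD45A among the 9. With at most 2 mismatches, both outside the cores, a setting chosen after the first count was seen, it occurred near 492 genes (2.88%) and near 4 of the 9. The capitals mark the cores.
CDKN1A: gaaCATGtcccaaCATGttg
GADD45A: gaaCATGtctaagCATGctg
BTG2: acgCATGttcaggCATGcat
FAS: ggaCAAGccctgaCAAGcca
The CDKN1A sequence lies at chr6:36644226-36644245 on the plus strand, 2256 bases upstream of the start of the canonical transcript. The first annotated base of the gene, 36644237, falls inside it, since longer transcript models start further upstream. The GADD45A sequence lies in intron 3 at chr1:68152458-68152477, plus strand, 1584 bases downstream of the start. The BTG2 sequence lies 1868 bases upstream of the start at chr1:203272770-203272789, plus strand. The FAS sequence lies in intron 1 at chr10:90751066-90751085, plus strand, 662 bases downstream of the start. The other 5 genes held no such match in this window, which says nothing of p53 at those genes. Binding was not measured, so a match is a description of the sequence.

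The 9 target genes were all present in the mock library, at levels that spanned the range of expressed genes. BAX was above 96.7% and FAS above 5.56% of the genes past the filter. By mean FPKM the order was BAX (182), GADD45A (53.4), CDKN1A (19.2), BBC3 (17.5), MDM2 (14.3), TP53I3 (13.0), SESN1 (11.0), BTG2 (7.96) and FAS (1.39). The values of CDKN1A and BBC3 overlapped across the libraries, as did those of MDM2 and TP53I3. The other neighbours in this order did not overlap, so the differences of level between the genes were larger than the differences between libraries.

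**Figure D1:**
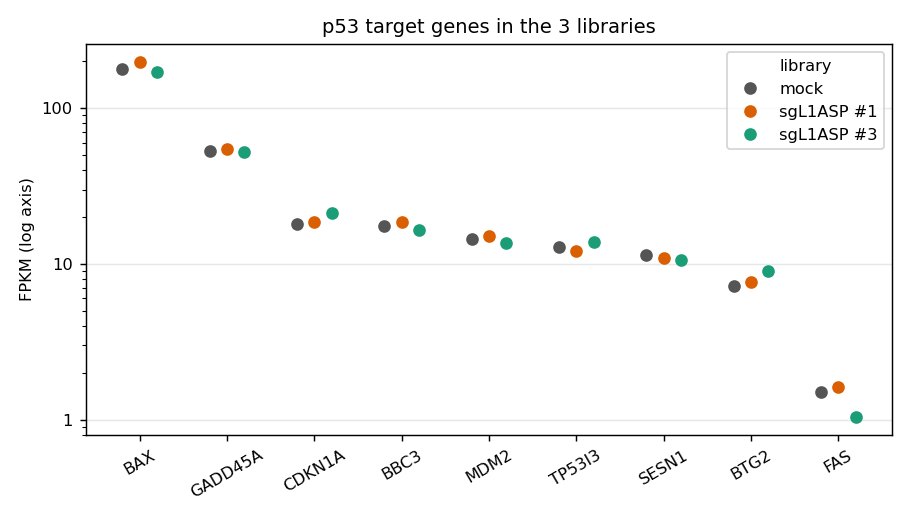
FPKM (log axis) of the 9 p53 target genes, ordered by mean, with 1 point per library for mock, sgL1ASP #1 and sgL1ASP #3; with no replicates there are no error bars. The points of a gene lie close together, within 1.24-fold for each gene but FAS, whose points spread from 1.04 to 1.63.

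MDM2, the inhibitor of p53 that p53 itself induces (chromosome 12, 69201957 to 69239324, plus strand), had FPKM 14.4 in mock, 15.0 with sgL1ASP #1 and 13.6 with sgL1ASP #3. It was thus highest with sgL1ASP #1 and lowest with sgL1ASP #3, by 1.10-fold. In RNA from a whole culture, a change in every cell cannot be told apart from a larger one in the transfected cells. The log2 change, taken here and below as the difference of log2(FPKM + 0.1), was 0.06 for sgL1ASP #1 to mock and -0.07 for sgL1ASP #3 to mock. MDM4, the relative of MDM2 that binds p53 and blocks its activity, had FPKM 8.91, 8.43 and 8.27 in the same libraries, highest in mock.

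Of the genes for growth arrest, CDKN1A encodes p21, an inhibitor of cyclin-dependent kinases and the best known p53 target (chromosome 6, 36644237 to 36655114, plus strand). Its FPKM was 18.1 in mock, 18.5 with sgL1ASP #1 and 21.2 with sgL1ASP #3. The sgL1ASP #3 library stood above the other two, and the log2 change was 0.23 for sgL1ASP #3 to mock against 0.03 for sgL1ASP #1 to mock. From the size of a single read in each library, about 362 reads covered CDKN1A in mock and about 353 in sgL1ASP #3. Counting error alone then gives a 95% interval of 0.02 to 0.44 for the former change.

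BTG2, an antiproliferative gene (chromosome 1, 203274619 to 203278730, plus strand), had FPKM 7.22 in mock, 7.70 with sgL1ASP #1 and 8.97 with sgL1ASP #3. The order of the libraries was that of CDKN1A. The log2 change was 0.31 for sgL1ASP #3 to mock, with a counting interval of 0.02 to 0.60, and 0.09 for sgL1ASP #1 to mock. Whether these intervals of CDKN1A and BTG2 leave out 0 depends on the scaling between libraries. With the libraries rescaled to an equal sum of FPKM, the change in sgL1ASP #3 to mock was 0.11 for CDKN1A, with an interval of -0.10 to 0.32, and 0.19 for BTG2, with an interval of -0.10 to 0.48.

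GADD45A, a stress gene that acts on the G2/M kinase (chromosome 1, 68150884 to 68154017, plus strand), had FPKM 53.02, 54.9 and 52.3 in mock, sgL1ASP #1 and sgL1ASP #3. Its libraries lay within 1.05-fold, the narrowest spread of the 9 genes.

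Of the genes for cell death, BAX encodes a protein that opens the outer mitochondrial membrane (chromosome 19, 49458072 to 49465055, plus strand). Its FPKM was 178 in mock, 198 with sgL1ASP #1 and 170.2 with sgL1ASP #3, highest with sgL1ASP #1. The log2 change was 0.15 for sgL1ASP #1 to mock and 0.22 for sgL1ASP #1 to sgL1ASP #3. BAX had the most estimated reads of the 9 genes, between 880 and 1214 a library, and the counting interval of the latter change was 0.09 to 0.34. After rescaling to an equal sum of FPKM this interval was 0.12 to 0.37. The interval for sgL1ASP #1 to mock was 0.03 to 0.27, and -0.06 to 0.17 after that rescaling. BBC3, which encodes the BCL2-binding protein PUMA (chromosome 19, 47724079 to 47736023, minus strand), had FPKM 17.5, 18.5 and 16.5 in mock, sgL1ASP #1 and sgL1ASP #3. The order of the libraries was that of BAX, with log2 changes to mock of 0.08 and -0.09. The counting intervals of BBC3 include 0 in each comparison, so its order is within counting error.

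FAS, the death receptor of the cell surface (chromosome 10, 90750414 to 90775542, plus strand), was the lowest of the 9 genes, with FPKM 1.495 in mock, 1.63 with sgL1ASP #1 and 1.04 with sgL1ASP #3. It was lower with sgL1ASP #3 than in both other libraries, with a log2 change of -0.48 to mock. The ratio of sgL1ASP #1 to sgL1ASP #3 was 1.57, a log2 change of 0.60. These values rest on about 37, 40 and 21 reads in mock, sgL1ASP #1 and sgL1ASP #3, and the counting interval of the change between the guides, -0.15 to 1.36, includes 0. TP53I3, a quinone oxidoreductase linked to oxidative stress (chromosome 2, 24300303 to 24308731, minus strand), had FPKM 12.9, 12.1 and 13.9 in the same libraries. Its libraries followed the reverse order of BAX and BBC3, within 1.16-fold. The counting intervals of TP53I3 include 0 in each comparison, so this order is within counting error.

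SESN1, a sestrin that restrains growth signalling through mTORC1 (chromosome 6, 109305512 to 109416049, minus strand), had FPKM 11.4 in mock, 10.9 with sgL1ASP #1 and 10.6 with sgL1ASP #3. Of the 9 genes, SESN1 alone was highest in mock under the authors' scaling. After rescaling to an equal sum of FPKM, MDM2, GADD45A, BBC3 and TP53I3 were highest in mock as well. The log2 changes to mock were -0.07 and -0.12, and both counting intervals include 0. After that rescaling both leave out 0, at -0.33 to -0.01 and -0.40 to -0.07. Those of MDM2 and BAX in sgL1ASP #3 to mock went the same way, each to -0.32 to -0.06. The rescaling also moved the median of all genes by -0.09 with sgL1ASP #1 and by -0.12 with sgL1ASP #3. Between the guides, the interval of MDM2 was 0.00 to 0.26, and 0.03 to 0.28 after rescaling.

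**Figure D2:**
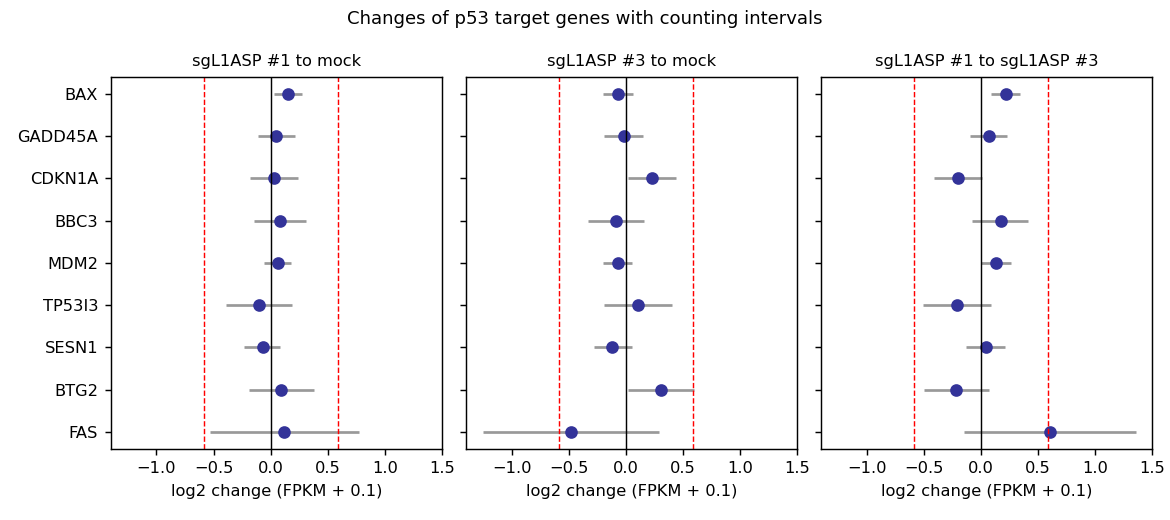
Log2 change of FPKM + 0.1 (horizontal axis) for the 9 genes in the 3 comparisons; points are the changes, grey bars are 95% intervals from counting error alone at the estimated depth, and dashed lines mark 1.5-fold. FAS in the comparison of the guides, at 0.60, is the only point past a dashed line, and its bar, from -0.15 to 1.36, is the widest in that panel.

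The libraries were then compared over the 9 genes together, with 1.5-fold, the size of step that the study used, as the threshold. For sgL1ASP #1 to mock, 0 of the 9 genes passed it, where 3.55% of all 12830 genes did. For sgL1ASP #3 to mock, 0 of 9 passed, where 3.80% of all genes did. Between sgL1ASP #1 and sgL1ASP #3, FAS was the 1 gene of 9 past 1.5-fold, where 3.77% of all genes were. Among the 1169 genes with mean FPKM from 1 to 2, where FAS belongs, 18% passed it in that comparison. Counts of 0 and 1 in 9 lie near these shares and are no result about the 9 genes.

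A threshold of 1.2-fold was also used. For sgL1ASP #1 to mock, 0 of 9 genes passed it against 14.4% of all genes, and for sgL1ASP #3 to mock 2 of 9 did, BTG2 and FAS in opposite directions, against 14.8%. Between the guides FAS was again the 1 gene, against 14.7%. With sgL1ASP #1, 7 of the 9 genes were higher than in mock, where 50.3% of all genes were, and their median log2 change was 0.057. With sgL1ASP #3, 3 of 9 were higher, where 50.4% of all genes were, and the median was -0.068. Between the guides, 6 of 9 were higher with sgL1ASP #1, where 49.0% of all genes were, with a median of 0.069. The comparisons to mock share the mock library, and the median of all genes was between -0.0027 and 0.0015 in the 3 comparisons.

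The median absolute log2 change of the 9 genes was 0.079 for sgL1ASP #1 to mock, 0.11 for sgL1ASP #3 to mock and 0.20 between the guides. Over all genes it was 0.094, 0.095 and 0.093. Each of the 9 genes stayed below the 95th percentile of the absolute change of genes at its own level, in each comparison. That percentile was 0.39 for BTG2 and 0.29 for CDKN1A in sgL1ASP #3 to mock, and 0.30 for BAX and 1.1 for FAS between the guides. The directions depend on the scaling. Under rescaling by median ratios, with factors between 0.9996 and 1.0017, no gene of the 9 turned direction. After rescaling the libraries to an equal sum of FPKM, the median of all genes moved by -0.09 for sgL1ASP #1 to mock and by -0.12 for sgL1ASP #3 to mock, and 2 of the 9 genes were then higher than in mock with either guide, as were 25.0% of all genes with sgL1ASP #1 and 20.8% with sgL1ASP #3.

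**Figure D3:**
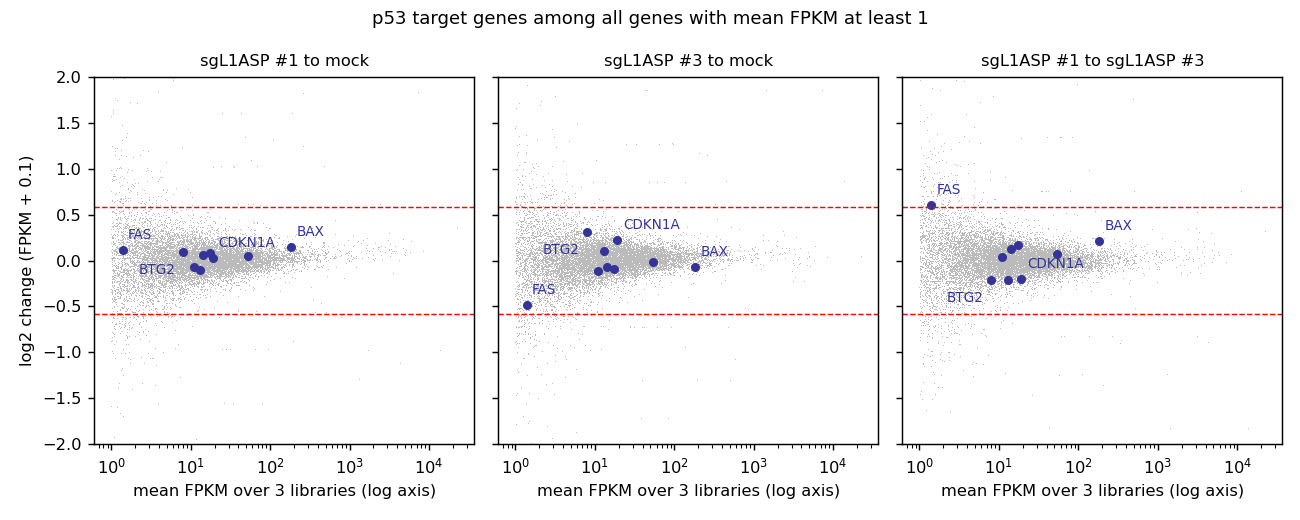
Log2 change of FPKM + 0.1 against mean FPKM (log axis) in the 3 comparisons, with the 12830 genes past the filter in grey, the 9 p53 target genes in blue and 1.5-fold as dashed lines. The vertical axis ends at a change of 2, beyond which 100 to 107 genes a panel are not drawn; the 9 genes lie inside the grey cloud at their level, which is widest at the left, where FAS is.

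Further genes of the pathway were followed in lists by role. Of 86 such genes, 81 had a mean FPKM of at least 1. In each of the 3 comparisons 0 of the 81 passed 1.5-fold, where 3.55% to 3.80% of all genes did. Past 1.2-fold were 7 for sgL1ASP #1 to mock, 6 for sgL1ASP #3 to mock and 6 between the guides. Of all genes, 14.4%, 14.8% and 14.7% were. These shares depend on level. Past 1.5-fold were 16% to 18% of all genes at mean FPKM from 1 to 2, and 0.50% to 0.66% from 10 to 20. The 81 genes were not matched to all genes for level, so these counts are no result about the pathway. Of the median log2 changes of the 81 genes in the 3 comparisons, the one farthest from 0 was 0.012, between the guides. In the rest of this account the 2 genes of highest mean FPKM in a list are named by rule, and other genes were singled out after their values were seen.

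The relatives TP63 and TP73 formed a list of their own. TP73 had FPKM 3.07 in mock, 3.69 with sgL1ASP #1 and 3.31 with sgL1ASP #3, lowest in mock, and TP63 is listed at 0 in each of the 3 libraries.

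The regulators of p53 comprised 23 genes, all past the filter. RPL11 and RPL5, ribosomal proteins that bind MDM2 and so stabilise p53, were the most abundant, with FPKM 5048 and 1994 in mock. RPL11 had FPKM 5414 in sgL1ASP #1 and 4816 in sgL1ASP #3, and RPL5 had 2257 and 2084. With sgL1ASP #1, 11 of the 23 were higher than in mock, beside 50.3% of all genes, and with sgL1ASP #3 7 were, beside 50.4%. After rescaling to an equal sum the counts were 5 and 1, beside 25.0% and 20.8%. The lowest change was that of KAT5, an acetyltransferase that acetylates p53, which had FPKM 29.5 in mock, 25.0 with sgL1ASP #1 and 21.4 with sgL1ASP #3. CHEK2, a damage kinase that phosphorylates p53, had FPKM 30.7, 28.5 and 24.2. Both were highest in mock and lowest with sgL1ASP #3, with log2 changes of -0.46 for KAT5 and -0.34 for CHEK2 in sgL1ASP #3 to mock, short of 1.5-fold.

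The other target genes for arrest and feedback comprised 15 genes, 13 of them past the filter. CCNG1, cyclin G1, had FPKM 183 in mock, 189 with sgL1ASP #1 and 187 with sgL1ASP #3, as level as GADD45A. E2F7, a repressor of cell cycle genes, had FPKM 12.5, 13.7 and 13.0. Of the 13, 6 passed 1.2-fold in sgL1ASP #1 to mock, beside 14.4% of all genes, and 2 did in sgL1ASP #3 to mock, beside 14.8%. Mean FPKM from 2 to 10, a range that holds all 6, takes in 10 genes of the list and 4430 of all genes. In this range 6 of the 10 passed 1.2-fold in the former comparison, beside 20.7% of all genes. In the latter comparison 2 of the 10 did, beside 21.4%, and between the guides 3 of the 10 did, beside 21.6%. The range was set after the 6 genes were seen, and within it the genes were not matched for level. These counts are therefore no result about the list. The log2 changes of the 6 in sgL1ASP #1 to mock were 0.42 for CDKN1C and 0.37 for PLK2, and -0.37 for PHLDA3, -0.34 for PLK3, -0.32 for GDF15 and -0.28 for ZMAT3. CDKN1C, the p57 inhibitor of cyclin-dependent kinases, had FPKM 5.87 in mock, 7.90 with sgL1ASP #1 and 8.11 with sgL1ASP #3, lowest in mock. PHLDA3, which inhibits AKT, had FPKM 8.88, 6.85 and 7.53, and GDF15, a stress-induced secreted factor, had 2.69, 2.14 and 2.19, both highest in mock. SFN, 14-3-3 sigma, under the filter, had FPKM 0.602, 0.348 and 0.517, and without the filter it was the 1 gene of this list past 1.5-fold in sgL1ASP #1 to mock, where 9.31% of all genes then were.

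The other target genes for cell death comprised 16 genes, 14 past the filter, with TNFRSF10A, a TRAIL receptor, listed at 0 in each library. SIVA1, a proapoptotic protein gene, had FPKM 159 in mock, 162 with sgL1ASP #1 and 155 with sgL1ASP #3. EI24, a gene of the endoplasmic reticulum, had 113, 115 and 124. With sgL1ASP #1 12 of the 14 were higher than in mock, beside 50.3% of all genes, and with sgL1ASP #3 9 were, beside 50.4%, with changes between -0.19 and 0.33. After rescaling to an equal sum the counts were 4 and 3, beside 25.0% and 20.8% of all genes. TP53AIP1, under the filter, had FPKM 0.492, 0.247 and 1.16, and without the filter it was the 1 gene of this list past 1.5-fold in each comparison, where 9.31% to 9.77% of all genes then were.

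The 5 repair targets were all past the filter. RPS27L, a ribosomal protein relative, had FPKM 30.5, 30.8 and 29.3 in mock, sgL1ASP #1 and sgL1ASP #3, and XPC, which senses DNA lesions for excision repair, had 22.3, 22.0 and 25.5. DDB2, another lesion sensor, had FPKM 15.0, 18.8 and 17.3, lowest in mock, with a log2 change of 0.32 for sgL1ASP #1 to mock. The 10 metabolic targets were also all past the filter. GPX1, a peroxidase, had FPKM 142, 157 and 158, and SESN2, the relative of SESN1, had 41.0, 38.2 and 41.5. With sgL1ASP #1 4 of the 10 were higher than in mock and with sgL1ASP #3 8 were, beside 50.3% and 50.4% of all genes, with changes between -0.26 and 0.28. After rescaling to an equal sum the counts were 1 and 5, beside 25.0% and 20.8%.

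When p21 accumulates, cell cycle genes are repressed through the DREAM complex. The 15 such genes followed here were all past the filter, and 0 of them passed 1.2-fold in any comparison. Of all genes, 14.4% to 14.8% did. Most of the 15 have a mean FPKM from 20 to 100, where the 95th percentile of the absolute log2 change was 0.23 to 0.25, short of 1.2-fold. A count of 0 lies near what that level gives and is no result about these genes. Those of highest mean were MYBL2, a transcription factor of the cell cycle, with FPKM 167 in mock, 164 with sgL1ASP #1 and 168 with sgL1ASP #3, and BIRC5, which encodes survivin, with 78.6, 77.9 and 78.4. Their median log2 change was -0.014 for sgL1ASP #1 to mock and -0.003 for sgL1ASP #3 to mock. The range was -0.17 to 0.18 in the former and -0.11 to 0.13 in the latter.

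The patterns nearest to those of CDKN1A and MDM2 were sought among the 81 genes, as the distance between the pairs of log2 changes to mock. Over 3 libraries this is a weak measure of likeness. XPC, PANK1 and STEAP3 were nearest to CDKN1A, at distances of 0.060, 0.070 and 0.080, and ATM, SIVA1 and RPL11 were nearest to MDM2, at 0.011, 0.043 and 0.045.

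The whole series gives the frame for these values. The depth, estimated from the spacing of low values, was between 8700000 and 10400000 reads a library, lowest in sgL1ASP #3. Of 8 genes expected in this line, 7 had FPKM above 1 in each library, among them VIM at 807 to 904, KRT18 and LIN28B, and PAX2 had 0.522 to 0.658. Of the markers of other cells, PTPRC, CD3E, COL1A2, DCN and KRT14 are listed at 0 in each library, as is TP63. OLIG2 had FPKM between 4.01 and 4.97 and COL1A1 between 1.99 and 2.55, and CD14, MBP, MOG and KRT5 were under 1.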

How the data were processed

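The authors prepared TruSeq stranded mRNA libraries, mapped single-end reads to hg19 with TopHat2 2.0.13, Bowtie2 2.2.3 and SAMtools 0.1.19, and deposited FPKM per gene from Cuffdiff (Cufflinks 2.2.1) in strand-specific mode. The gene annotation and the scaling between libraries are not given in the sources used here. FPKM sums the isoforms of a gene, so a change between isoforms is not seen.

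The 9 genes, the lists and the thresholds were chosen with earlier results of these data known. All 115 list entries were found, 3 of them under an older name (KIAA0247, PIDD and C12orf5). Changes are log2(FPKM + 0.1), which understates changes of low genes. Calls were made over genes with mean FPKM at least 1, at 1.5-fold. The depth was estimated from genes with a single annotated transcript longer than 1000 bases, less a fragment of 200 bases, as the most frequent value of 1 read, and reads per gene from the canonical transcript. Intervals cover counting error only and depend on that length. Positions and sequences are from GRCh37 with GENCODE 44 lifted to it. The rule for named genes was the 9 genes, MDM4, any list gene past the filter and 1.5-fold, the 2 of highest mean in a list and the 3 nearest patterns. The fold calls were tested on simulated data with counting error only and planted changes larger than 1.5-fold. That test says nothing of smaller changes or of differences between cultures. Python 3.11.15, NumPy 2.4.6, pandas 2.3.3 and matplotlib 3.10.9 were used. 1 gene that the rule also named is not reported here. Guide targets and the other assays were not analysed here.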

Additional observations from a re-analysis of the deposited data

How the results depend on the processing

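No paired analysis was possible because there was only 1 library for a condition. Pseudocounts of 0.01 and 1, no filter, FPKM at least 1 in every library, rescaling by median ratios or to sums of 1000000, and thresholds of 2-fold and 1.2-fold were tried. The count of the 9 genes past 1.5-fold stayed at 0 for sgL1ASP #1 to mock under all of these. For sgL1ASP #3 to mock it was 2 at the 1.2-fold threshold, and 1 after rescaling to a sum, where FAS passed. Between the guides, where FAS is the 1 gene, it was 0 with a pseudocount of 1 and 0 at 2-fold. Rescaling to a sum turned the median of the 9 genes for sgL1ASP #1 to mock to -0.037, beside -0.092 for all genes, and gave -0.188 for sgL1ASP #3 to mock, beside -0.117 for all genes. Of 108 recomputed log2 changes of the 9 genes, 6 turned sign, all 6 after that rescaling. The number of the 9 genes with a p53 element was 1, and it was 0 with 0 mismatches, 0 within 1 kb of the start, and 4 with at most 2 mismatches outside the cores, the last chosen after seeing the data. Among all 17103 genes these settings gave 0.0760%, 0.292% and 2.88%. The share of all genes past 1.5-fold, 3.55% to 3.80% over the 3 comparisons, was 9.31% to 9.77% without a filter, 1.87% to 2.04% with FPKM at least 1 in every library, 1.89% to 2.23% with a pseudocount of 1 and 1.45% to 1.68% at 2-fold. The share of all genes higher than in mock went from 50.3% to 25.0% with sgL1ASP #1 and from 50.4% to 20.8% with sgL1ASP #3 after rescaling to a sum. The counts of list genes and the intervals after that rescaling were added after seeing the data, as was the range of mean FPKM from 2 to 10. Depth limits FAS, with about 21 reads in sgL1ASP #3, more than the other 8 genes.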
